A study of Arabidopsis thaliana with 8 samples.

Results

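Seeds of the Arabidopsis thaliana line serk1-1 were compared with seeds of the wild type Col-0 after 24 h in liquid medium with 200 mM NaCl. RNA sequencing gave 2 libraries per genotype, labelled as biological replicates, and the same 2 genotypes were also sequenced after 24 h without added NaCl, which makes 8 libraries in all. Both genotypes share the Columbia-0 ecotype and the imbibition in Murashige and Skoog medium. The labels give neither the kind of mutation in serk1-1 nor the number of seed lots, so each p-value rests on the spread between sequenced libraries, which may be technical. Values are FPKM, fragments scaled by the length of the transcript and by the mapped fragments of the library. The genes described are the 14269 of 33279 that had at least 1 FPKM in both libraries of either genotype with NaCl. Of these, 13134 passed in both genotypes, 408 through serk1-1 alone and 727 through Col-0 alone. At this limit, 47 genes lay just inside, within 0.02 FPKM of it in the lower library of their better group, and 36 lay just outside, within 0.02 FPKM below it.

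SERK1 belongs to the somatic embryogenesis receptor kinases, small leucine-rich repeat kinases of the plasma membrane that pair with larger receptors once these have bound a ligand, such as the brassinosteroid receptor BRI1 and the peptide receptors of the HAESA and phytosulfokine families. A dry seed holds storage proteins, oil bodies and late embryogenesis abundant (LEA) proteins, whose transcripts are laid down during maturation under abscisic acid (ABA) and the regulators ABI3, ABI4 and ABI5, and whose levels fall when germination proceeds. In a germinating seed, by contrast, the embryo repairs DNA, begins replication, loosens its cell walls and mobilises its oil, while salt and ABA hold these steps back.

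The FPKM summed to 892918 and 885375 in the serk1-1 libraries, against 821076 and 821247 in the Col-0 libraries. FPKM hold no read counts, so the depth of the libraries is unknown and no counting error can be attached to a value. Across genes the replicates correlated with r = 0.98 in serk1-1 and 0.953 in Col-0, and libraries of different genotype with 0.885 to 0.954. Of the markers of imbibed seeds, 6 of 6 passed the limit, and the root and root hair genes EXPA7, EXPA18, COBL9 and PHT1;1 were listed at 0 in all 4 libraries. Of 6 seed coat genes, BAN and TT10 were listed at 0 as well, MUM4 alone passed the limit, and the summed level was 2.07 and 2.17 FPKM in serk1-1 seeds, against 5.27 and 2.77 FPKM in Col-0 seeds. Replicate 2 of Col-0 stood apart in the heat shock genes, described further on. It also lay nearer than replicate 1 to the serk1-1 mean in 66.6% of the 14269 genes. AT2G01021, a ribosomal DNA locus, was listed at 2826 and 0 FPKM in serk1-1 seeds and at 14546 and 41978 FPKM in Col-0 seeds.

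In the limma fit over 15336 genes, 327 of the 14269 genes were called higher in serk1-1 (2.13% of all genes tested) and 635 lower (4.14%), at a Benjamini-Hochberg adjusted p under 0.05. Fold changes are log2 differences of FPKM + 1, serk1-1 minus Col-0, with their standard errors, and the added 1 makes the change of a weakly expressed gene look smaller than it is. The median size among the called genes was 1.43, and 827 of the 962 exceeded 1. The groups did not overlap in any of the 962 called genes, nor in 8282 of the 14269 genes in all. Of the 962, 68 passed the limit of 1 FPKM through Col-0 alone and 12 through serk1-1 alone. A difference in that direction was thus built into their choice, and SMR7 is among the 68. The median of all genes tested was -0.24, and -0.01, -0.35 and 0.00 after median-of-ratios scaling, equal totals and quantile normalization. The share of higher calls was 34% as fitted, against 48.7%, 22.3% and 50.4% under these scalings. In the lists below, calls are to be read beside 2.13% higher and 4.14% lower, and negative values beside the negative median of all genes. The spread of all 8 libraries entered this fit. With the 4 NaCl libraries alone 9 genes were called. Without serk1-1 replicate 1 or 2, 15 and 2 genes were called, without Col-0 replicate 1 or 2, 18 and 660. These fits held 13, 2, 18 and 416 of the 962 calls. Without one of the libraries from the medium lacking NaCl, 340 to 493 were called. Only SMR7 and the non-coding AT2G01422 were called in each fit that left out 1 NaCl library. In bulk seeds, fewer cells of a type and less RNA per cell cannot be told apart.

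Many genes of storage proteins and oil bodies rose in serk1-1. Of 17 genes of this list that were expressed, 9 rose, 0 fell, and 17 of 17 had positive values, with a median of 1.63, which lies 1.87 above the median of all genes. Cruciferins are the globulins of the seed, and CRC (AT4G28520) had 4449 and 8659 FPKM in serk1-1 seeds, against 487 and 1165 FPKM in Col-0 seeds. Both serk1-1 libraries lay above both Col-0 libraries, a difference of 3.04 ± 0.59 (limma adjusted p = 0.0339). CRB (AT1G03880), another cruciferin, had 591 and 474 FPKM in serk1-1 seeds, against 158 and 224 FPKM in Col-0 seeds (1.49 ± 0.29, limma adjusted p = 0.0339). The groups did not overlap here either. CRA1 (AT5G44120), the most abundant cruciferin, had 17144 and 31388 FPKM in serk1-1 seeds, against 2627 and 8732 FPKM in Col-0 seeds. Its groups did not overlap, and its difference of 2.28 ± 0.79 did not pass the test (limma adjusted p = 0.114).

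The albumins are the second class of storage protein. SESA5 (AT5G54740) had 7373 and 10731 FPKM in serk1-1 seeds, against 1278 and 2105 FPKM in Col-0 seeds, a difference of 2.44 ± 0.51 (limma adjusted p = 0.0384). SESA2 (AT4G27150) had 359.9 and 534 FPKM in serk1-1 seeds, against 98.7 and 100.4 FPKM in Col-0 seeds (2.13 ± 0.24, limma adjusted p = 0.0129), and SESA4 (AT4G27170) rose by 1.58 ± 0.23 (limma adjusted p = 0.0194). In these 3 genes both serk1-1 libraries were higher than both Col-0 libraries. SESA1 (AT4G27140) had 172 and 167 FPKM in serk1-1 seeds, against 138 and 189.6 FPKM in Col-0 seeds (0.06 ± 0.30), and its groups overlapped. SESA1 to SESA4 are adjacent, similar genes, and how shared reads were divided among them is not given in the sources used here.

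Oleosins and caleosins coat the oil bodies. AT3G01570, an oleosin, had 1857 and 2501 FPKM in serk1-1 seeds, against 513 and 722 FPKM in Col-0 seeds (1.82 ± 0.35, limma adjusted p = 0.033). OLEO3 (AT5G51210) had 52.0 and 60.7 FPKM in serk1-1 seeds, against 16.3 and 21.5 FPKM in Col-0 seeds (1.54 ± 0.22, limma adjusted p = 0.0182). The caleosins CLO1 (AT4G26740) and CLO2 (AT5G55240) rose by 1.63 ± 0.27 and 1.53 ± 0.30. OLEO1 (AT4G25140), the most abundant oleosin, had 5470.0 and 6213 FPKM in serk1-1 seeds, against 1382 and 2576 FPKM in Col-0 seeds, and did not pass the test (1.63 ± 0.46, limma adjusted p = 0.0758). Summed over the list, the level was 49028 and 78634 FPKM in serk1-1 seeds, against 10072 and 22294 FPKM in Col-0 seeds. Replicate 2 was the higher library in both genotypes. Without serk1-1 replicate 1 or 2, 1 and 0 genes of this list were called, and without Col-0 replicate 1 or 2, 0 and 9, while the median stayed between 1.37 and 2.07.

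LEA proteins, which protect cells while they dry, rose in part. Of 22 genes expressed, 6 rose, 1 fell and 16 had positive values, with a median of 0.86. EM6 (AT2G40170) had 6411 and 8966 FPKM in serk1-1 seeds, against 1518 and 2275 FPKM in Col-0 seeds, and EM1 (AT3G51810) had 1347 and 1577 FPKM in serk1-1 seeds, against 430.3 and 286 FPKM in Col-0 seeds. Both are group 1 LEA proteins of the mature embryo, and in both genes the serk1-1 libraries lay above the Col-0 libraries, by 2.03 ± 0.44 and 2.05 ± 0.28 (limma adjusted p = 0.0427 and 0.0178). ECP31 (AT3G22500), a seed maturation protein, had 1873 and 1718 FPKM in serk1-1 seeds, against 442 and 573 FPKM in Col-0 seeds (1.83 ± 0.35, limma adjusted p = 0.033). The dehydrin XERO1 (AT3G50980) rose by 1.32 ± 0.23, AT3G22490, another seed maturation protein, by 1.41 ± 0.26, and AT2G42560, a LEA domain protein, by 1.38 ± 0.22.

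Not all dehydrins moved this way. ERD14 (AT1G76180), a dehydrin known from vegetative tissue under dehydration and cold, fell to 6.12 and 4.41 FPKM in serk1-1 seeds, against 89.6 and 47.5 FPKM in Col-0 seeds (-3.42 ± 0.34, limma adjusted p = 0.0127). Both serk1-1 libraries were lower. RAB18 (AT5G66400), an ABA-responsive dehydrin, had 12104 and 11421 FPKM in serk1-1 seeds, against 3437 and 5520.4 FPKM in Col-0 seeds. Its groups did not overlap, and it did not pass the test (1.43 ± 0.50, limma adjusted p = 0.117). LTI30 (AT3G50970) had 116 and 44.3 FPKM in serk1-1 seeds, against 259 and 152 FPKM in Col-0 seeds (-1.45 ± 0.56, limma adjusted p = 0.143). The LEA median was 0.46 after quantile normalization, and without serk1-1 replicate 1 or 2 or Col-0 replicate 1, 0 genes of the list were called higher. Without Col-0 replicate 2, 2 were.

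**Figure D1:**
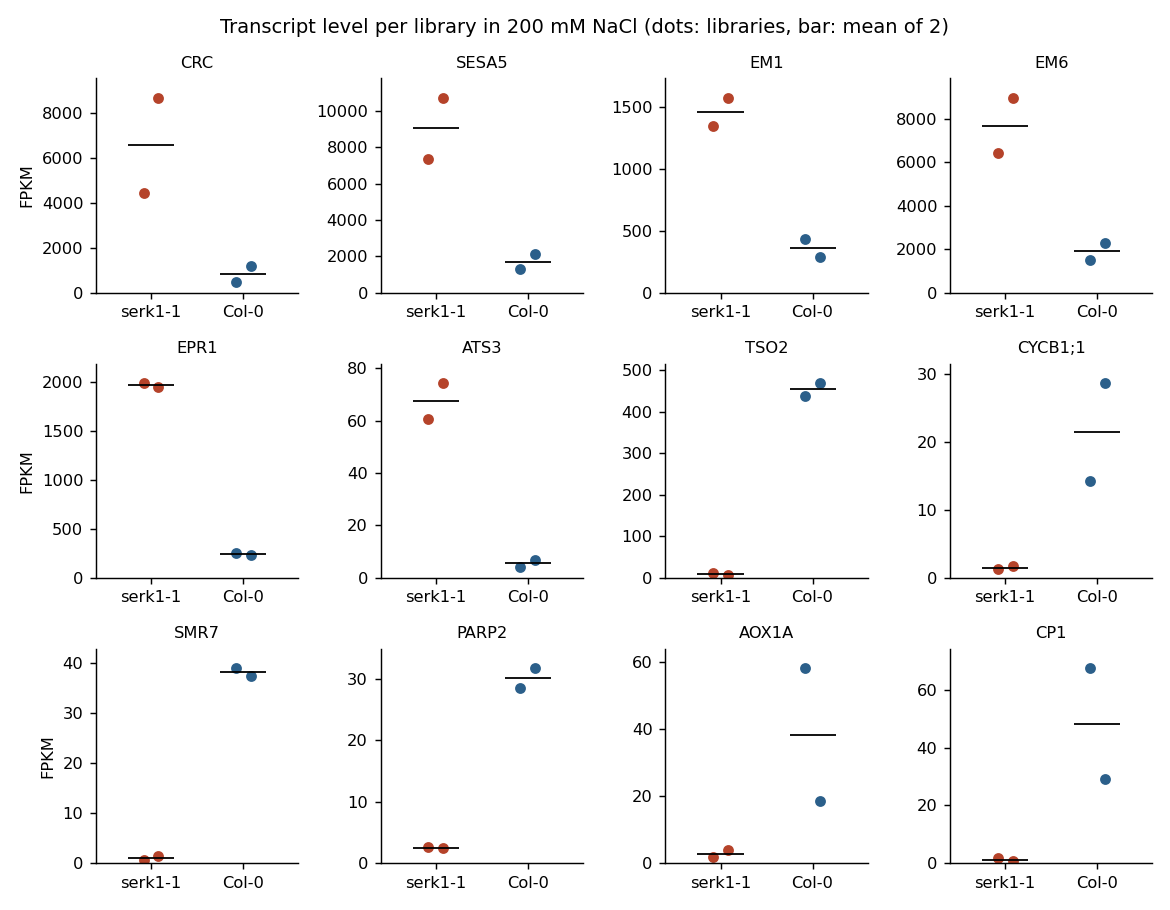
FPKM (vertical axes, each from 0) of 12 genes in the serk1-1 and Col-0 libraries with 200 mM NaCl, where dots are single libraries and the bar is the mean of 2. CRC, SESA5, EM1, EM6, EPR1 and ATS3 lie higher in both serk1-1 libraries than in both Col-0 libraries, and TSO2, CYCB1;1, SMR7, PARP2, AOX1A and CP1 lie lower.

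The promoters of CRC, SESA5 and EM6 are shown as examples of called storage and LEA genes, to let the motifs of ABA and maturation control be read in place. The ABA response element core ACGTG is bound by bZIP factors such as ABI5, and the RY element CATGCA by B3 factors such as ABI3. Each sequence is the 250 bases before the annotated gene start on the gene's own strand, 5′ to 3′, from RefSeq's TAIR10.1, and capitals mark the ABA response element core and the RY element on either strand.
CRC, chr4:14087306-14087555, plus strand: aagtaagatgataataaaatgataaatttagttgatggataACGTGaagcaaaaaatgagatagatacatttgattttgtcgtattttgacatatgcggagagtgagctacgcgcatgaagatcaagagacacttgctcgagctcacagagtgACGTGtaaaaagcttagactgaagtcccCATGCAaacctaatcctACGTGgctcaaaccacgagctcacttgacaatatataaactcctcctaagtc
SESA5, chr5:22239188-22239437, minus strand: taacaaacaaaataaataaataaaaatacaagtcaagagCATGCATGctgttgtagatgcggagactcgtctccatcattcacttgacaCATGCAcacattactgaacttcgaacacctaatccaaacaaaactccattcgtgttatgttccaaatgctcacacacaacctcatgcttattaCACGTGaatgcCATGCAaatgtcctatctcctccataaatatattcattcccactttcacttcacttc
EM6, chr2:16780369-16780618, minus strand: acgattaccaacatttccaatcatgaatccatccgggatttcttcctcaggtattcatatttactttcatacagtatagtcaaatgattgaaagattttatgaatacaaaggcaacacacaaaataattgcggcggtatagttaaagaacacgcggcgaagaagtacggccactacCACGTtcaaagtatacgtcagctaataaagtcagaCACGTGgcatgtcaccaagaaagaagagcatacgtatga

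CRC held 3 ABA response element cores, at 209, 97 and 52 bases before the start, and 1 RY element. SESA5 held 4 RY elements, of which a pair overlap in opposite directions, and 2 cores that overlap on opposite strands. EM6 held 3 cores, a pair of them overlapping, and no RY element. Overlapping cores on opposite strands form the G-box CACGTG, so a G-box counts as a core as well. Among the called genes, the core stood in 7 of 9 promoters of the storage list and in 5 of 6 of the LEA list, and the RY element in 8 of 9 and in 1 of 6.

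Across all genes called higher in serk1-1, 42.1% of 316 promoters held the ABA response element core, against 25% of 628 promoters of genes called lower, 23.5% of the 14919 promoters of genes tested and 22.9% of 27561 promoters of protein-coding genes. The G-box stood in 20.6%, 7.64%, 8.11% and 6.46% of these sets. The RY element stood in 14.2%, 5.89%, 6.96% and 8.41%. These shares are a description of letters in a window, both strands counted, and not of binding.

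**Figure D2:**
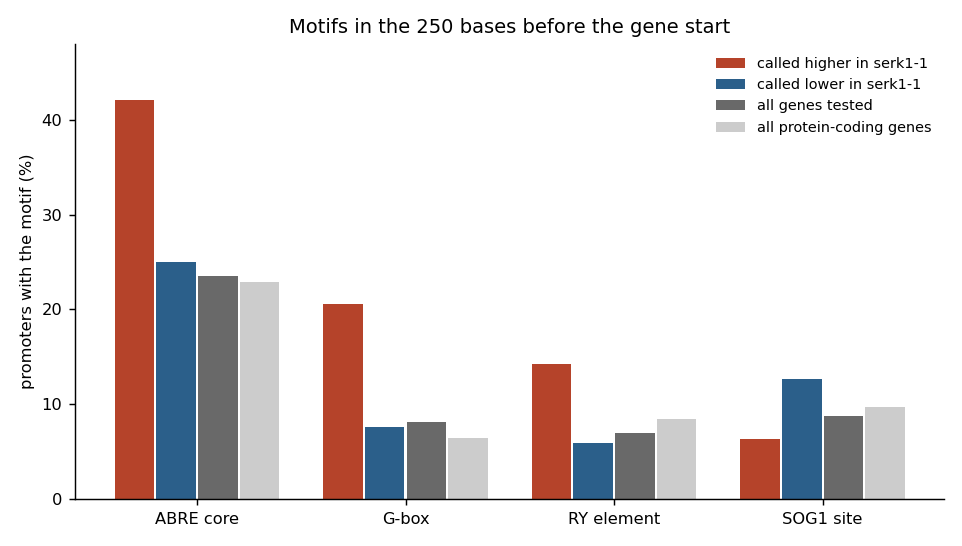
Share of promoters (percent, 250 bases before the gene start, both strands) that hold each motif among genes called higher in serk1-1, called lower, all genes tested and all protein-coding genes. The ABA response element core (labelled ABRE core) stands in 42.1% of the genes called higher and in 25% of those called lower, and the SOG1 site in 6.33% and 12.6%.

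Of the regulators of seed maturation and dormancy, 12 were expressed, 0 rose and 1 fell, and 0 were called when any of the 4 NaCl libraries was left out. Their median of 0.09 was -0.004 with equal totals, -0.04 without serk1-1 replicate 1 and -0.24 without Col-0 replicate 2. ABI3 (AT3G24650), the B3 factor of seed maturation, had 140.0 and 114 FPKM in serk1-1 seeds, against 205 and 171 FPKM in Col-0 seeds. It was lower in both serk1-1 libraries, and the difference of -0.56 ± 0.21 did not pass the test (limma adjusted p = 0.137). ABI4 (AT2G40220), an AP2 factor of ABA and sugar signalling, fell to 32.0 and 16.3 FPKM in serk1-1 seeds, against 63.5 and 83.8 FPKM in Col-0 seeds (-1.63 ± 0.37, limma adjusted p = 0.0478). ABI5 (AT2G36270), the bZIP factor that activates LEA genes, had 97.8 and 74.6 FPKM in serk1-1 seeds, against 135 and 46.9 FPKM in Col-0 seeds. Its groups overlapped (0.10 ± 0.51). The bZIP factor EEL (AT2G41070) had 31.8 and 62.4 FPKM in serk1-1 seeds, against 13.8 and 13.3 FPKM in Col-0 seeds (1.65 ± 0.41, limma adjusted p = 0.0583), with no overlap. DOG1 (AT5G45830), the dormancy gene, had 3.23 and 1.21 FPKM in serk1-1 seeds, against 2.65 and 1.28 FPKM in Col-0 seeds and its groups overlapped.

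A single gene of ABA metabolism was called. CYP707A2 (AT2G29090), the hydroxylase that breaks ABA down in imbibed seeds, fell to 4.06 and 3.58 FPKM in serk1-1 seeds, against 13.8 and 12.4 FPKM in Col-0 seeds. The serk1-1 libraries lay below the Col-0 libraries, by -1.55 ± 0.24 (limma adjusted p = 0.0229), and the same gene differed by -0.20 ± 0.24 without NaCl. This was the 1 call among 7 genes of ABA synthesis and breakdown (median -0.55). NCED9 (AT1G78390), a dioxygenase of ABA synthesis in seeds, had 14.6 and 6.66 FPKM in serk1-1 seeds, against 20.9 and 16.5 FPKM in Col-0 seeds (-0.84 ± 0.59, limma adjusted p = 0.378). Again the groups did not overlap, and the difference did not pass the test. The hydroxylase CYP707A3 (AT5G45340), past the limit through Col-0 alone, had 0.32 and 0.06 FPKM in serk1-1 seeds, against 3.78 and 1.17 FPKM in Col-0 seeds (-1.445 ± 0.43, limma adjusted p = 0.0815). ABA1 (AT5G67030), of ABA synthesis, stood at 0.58 ± 0.175 (limma adjusted p = 0.0857) and was called higher without NaCl. The groups were apart in both. The list had 2 lower calls without Col-0 replicate 2 and 0 calls without each of the other 3 NaCl libraries.

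Of the 19 expressed genes listed for ABA perception and signalling, from receptors to phosphatases and kinases, 0 were called. Their median of -0.16 turned positive after median-of-ratios scaling (0.10) and quantile normalization (0.03). The largest differences were those of the phosphatase HAI3 (AT2G29380), with 5.91 and 1.42 FPKM in serk1-1 seeds, against 54.3 and 11.3 FPKM in Col-0 seeds (-2.67 ± 0.79, limma adjusted p = 0.0819), and of the receptor PYL4 (AT2G38310), with 2.17 and 2.02 FPKM in serk1-1 seeds, against 23.2 and 5.35 FPKM in Col-0 seeds (-2.002 ± 0.61, limma adjusted p = 0.0878). In both, Col-0 replicate 1 was the highest library. Other ABA-related genes, outside this list, were called in both directions, such as ABF4 (AT3G19290) at 1.37 ± 0.25 and SNRK2-8 (AT1G78290) at -1.73 ± 0.29.

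Gibberellin, which opposes ABA in germination, gave 0 calls among 10 genes, with a median of -0.30 that was 0.14 without Col-0 replicate 1. GA3OX1 (AT1G15550) and GA3OX2 (AT1G80340), which make active gibberellin, were below the limit and are not among the 10. GA3OX1 had 0.24 and 0.21 FPKM in serk1-1 seeds, against 1.74 and 0.38 FPKM in Col-0 seeds (-0.67 ± 0.44, limma adjusted p = 0.355), and GA3OX2 had 0 and 0.04 FPKM in serk1-1 seeds, against 0.15 and 0.26 FPKM in Col-0 seeds. The largest differences were those of the repressors RGL3 (AT5G17490), with 30.3 and 27.4 FPKM in serk1-1 seeds, against 15.6 and 7.76 FPKM in Col-0 seeds (1.31 ± 0.41, limma adjusted p = 0.0911), and RGA (AT2G01570), with 28.0 and 15.4 FPKM in serk1-1 seeds, against 66.5 and 29.2 FPKM in Col-0 seeds (-1.05 ± 0.53, limma adjusted p = 0.236). The groups did not overlap in either, and the directions were opposite.

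The listed cell wall loosening genes had mostly negative values, and few passed the test. Of 12 expressed, 0 rose, 2 fell and 11 had negative values, with a median of -1.76. CP1 and EXPA8 (AT2G40610) passed the limit of 1 FPKM through Col-0 alone, so a lower serk1-1 value was built into their choice. The list does not hold every gene of the XTH family of wall enzymes. Outside it, XTH25 (AT5G57550) was called higher, and XTH24 (AT4G30270) and XTH30 (AT1G32170) were called lower. The extensin-like EPR1 (AT2G27380), placed with the endosperm markers instead, was called higher, at 3.02 ± 0.24. CP1 (AT4G36880), counted in the list, is a cysteine proteinase and not a wall enzyme. It fell to 1.54 and 0.64 FPKM in serk1-1 seeds, against 67.7 and 29.1 FPKM in Col-0 seeds (-4.48 ± 0.65, limma adjusted p = 0.0192). EXPA2 (AT5G05290), an expansin of germinating seeds, fell to 21.1 and 15.6 FPKM in serk1-1 seeds, against 215 and 72.5 FPKM in Col-0 seeds (-2.72 ± 0.57, limma adjusted p = 0.0397). The groups did not overlap in these 2 genes. Col-0 replicate 1 was the highest library in both, and without it 0 genes of the list were called and the median was -0.57. Without serk1-1 replicate 2 the median was -0.99 and 0 were called, as without serk1-1 replicate 1.

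Several genes of the DNA damage response fell. Of 21 expressed, 0 rose, 9 fell and 18 had negative values, with a median of -1.67. Of the 21, SMR7, RPA1E, BRCA1 and ANAC044 (AT3G01600) passed the limit of 1 FPKM through Col-0 alone. A lower value in serk1-1 was thus built into their choice. In plants the NAC factor SOG1 turns on many genes of the DNA damage response after strand breaks. SMR7 (AT3G27630), an inhibitor of cyclin-dependent kinases that SOG1 is known to activate, fell to 0.52 and 1.32 FPKM in serk1-1 seeds, against 39.0 and 37.6 FPKM in Col-0 seeds, a difference of -4.39 ± 0.32 (limma adjusted p = 0.00805). PARP2 (AT4G02390), a poly(ADP-ribose) polymerase that marks breaks, fell to 2.59 and 2.38 FPKM in serk1-1 seeds, against 28.5 and 31.8 FPKM in Col-0 seeds (-3.16 ± 0.26, limma adjusted p = 0.00937). The replicates of each genotype were close in both genes and the groups lay far apart.

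PARP1 (AT2G31320), another poly(ADP-ribose) polymerase, had 2.38 and 1.83 FPKM in serk1-1 seeds, against 11.6 and 16.0 FPKM in Col-0 seeds (-2.24 ± 0.26, limma adjusted p = 0.0137). GMI1 (AT5G24280), a gene induced by gamma irradiation and known as a SOG1 target, had 1.76 and 2.58 FPKM in serk1-1 seeds, against 9.84 and 17.38 FPKM in Col-0 seeds (-2.17 ± 0.32, limma adjusted p = 0.0193). Both genes were lower in both serk1-1 libraries. XRI1 (AT5G48720), an X-ray induced gene, differed by -2.25 ± 0.51, and RAD17 (AT5G66130) of the damage checkpoint by -1.92 ± 0.31. RPA1E (AT4G19130), a subunit of the single-strand binding complex, differed by -1.90 ± 0.27, and SIM (AT5G04470), a kinase inhibitor related to SMR7, by -1.67 ± 0.29. RAD17 overlaps PAD2 (AT5G66140), a proteasome gene on the other strand, in the annotation. PAD2 had 93.2 and 55.6 FPKM in serk1-1 seeds, against 361 and 149 FPKM in Col-0 seeds. Without strand the reads of the overlap cannot be assigned, and their part in the RAD17 values was not tested. GMI1 and SIM also overlap other annotated genes. SOG1 (AT1G25580) itself had 7.28 and 7.5 FPKM in serk1-1 seeds, against 11.3 and 11.1 FPKM in Col-0 seeds. Its libraries were lower in serk1-1 without passing the test (-0.54 ± 0.22, limma adjusted p = 0.159).

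BRCA1 (AT4G21070) had 0.19 and 0.39 FPKM in serk1-1 seeds, against 2 and 8.16 FPKM in Col-0 seeds (-2.03 ± 0.65, limma adjusted p = 0.0973). Of the sensor kinases, ATM (AT3G48190) stood at 0.41 ± 0.30, and ATR (AT5G40820), which did not pass the limit of 1 FPKM, at -0.72 ± 0.38. Neither passed the test. PARP3 (AT5G22470), a seed-expressed polymerase, had 355 and 292 FPKM in serk1-1 seeds, against 206 and 184 FPKM in Col-0 seeds, the opposite direction to PARP1 and PARP2 (0.72 ± 0.25, limma adjusted p = 0.11). The list had 2, 1, 2 and 7 calls, all lower, without serk1-1 replicate 1, serk1-1 replicate 2, Col-0 replicate 1 and Col-0 replicate 2, and its median stayed between -1.85 and -1.32.

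The promoters of SMR7 and PARP2 are shown because they hold the letters of the SOG1 site, CTT and AAG with any 7 bases between them, which capitals mark (250 bases before the start, gene strand, 5′ to 3′, RefSeq TAIR10.1).
SMR7, chr3:10231568-10231817, minus strand: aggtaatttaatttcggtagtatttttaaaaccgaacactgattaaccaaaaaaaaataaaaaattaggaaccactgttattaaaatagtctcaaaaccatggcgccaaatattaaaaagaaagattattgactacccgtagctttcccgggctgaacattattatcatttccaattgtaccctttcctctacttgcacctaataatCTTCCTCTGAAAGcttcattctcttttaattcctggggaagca
PARP2, chr4:1049516-1049765, plus strand: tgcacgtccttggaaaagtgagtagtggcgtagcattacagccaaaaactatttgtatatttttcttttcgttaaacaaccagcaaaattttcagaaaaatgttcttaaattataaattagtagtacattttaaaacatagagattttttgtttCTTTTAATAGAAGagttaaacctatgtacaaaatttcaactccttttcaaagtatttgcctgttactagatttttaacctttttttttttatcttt

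The site began 43 bases before the start in SMR7 and 96 in PARP2. Among the called genes of the DNA damage list, it stood in 3 of 9 promoters, and GMI1 held no such site in this window. Across sets, the site stood in 6.33% of promoters of genes called higher, in 12.6% of genes called lower and in 8.73% of the promoters of genes tested.

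Some cell cycle and replication genes fell as well. Of 14 expressed, 0 rose, 5 fell and 14 of 14 had negative values, with a median of -1.08. MCM5 and CDKB2;1 (AT1G76540) passed the limit of 1 FPKM through Col-0 alone, so a lower serk1-1 value was built into their choice. TSO2 (AT3G27060), a small subunit of ribonucleotide reductase, which supplies deoxyribonucleotides, had 11.1 and 5.86 FPKM in serk1-1 seeds, against 438 and 469 FPKM in Col-0 seeds. This was the largest fall among the genes named, -5.64 ± 0.43 (limma adjusted p = 0.00805), and the 2 Col-0 libraries were close. TSO2 overlaps AT3G27050 in the annotation, which had 1.35 and 0.52 FPKM in serk1-1 seeds, against 5.82 and 2.26 FPKM in Col-0 seeds. RNR1 (AT2G21790), the large subunit, had 21 and 17.9 FPKM in serk1-1 seeds, against 55.2 and 53.6 FPKM in Col-0 seeds (-1.44 ± 0.21, limma adjusted p = 0.0194). RNR2A (AT3G23580), a further small subunit gene, had 46.4 and 28.0 FPKM in serk1-1 seeds, against 96.8 and 74.7 FPKM in Col-0 seeds. Its groups did not overlap, and the difference of -1.22 ± 0.33 did not pass the test (limma adjusted p = 0.0674).

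TK1A (AT3G07800), a thymidine kinase of nucleotide salvage, had 4.12 and 4.01 FPKM in serk1-1 seeds, against 39.2 and 72.9 FPKM in Col-0 seeds (-3.43 ± 0.38, limma adjusted p = 0.0127). CYCB1;1 (AT4G37490), a mitotic cyclin that DNA damage also induces, had 1.26 and 1.69 FPKM in serk1-1 seeds, against 14.3 and 28.7 FPKM in Col-0 seeds (-3.11 ± 0.37, limma adjusted p = 0.0137). Both serk1-1 libraries were lower in each, and Col-0 replicate 2 was the highest library. KRP6 (AT3G19150), an inhibitor of cyclin-dependent kinases, differed by -0.94 ± 0.19. The list also holds the inhibitors KRP3, KRP4, KRP5 and KRP7, so it joins genes that promote the cell cycle with genes that restrain it. The replication genes PCNA1 (AT1G07370), MCM5 (AT2G07690) and MCM4 (AT2G16440) stayed near or below 1 FPKM in all 4 libraries, at 0.15 to 1.29 FPKM, and the replicative helicase genes MCM2 (AT1G44900), MCM3 (AT5G46280), MCM6 (AT5G44635) and MCM7 (AT4G02060) did not exceed 0.57 FPKM. Of the 5 called cell cycle genes, 0 held the SOG1 site or the E2F site TTTCCCGC in the 250 bases before the start. Without serk1-1 replicate 1 or 2, 1 and 0 genes of the list were called, without Col-0 replicate 1 or 2, 3 and 5.

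**Figure D3:**
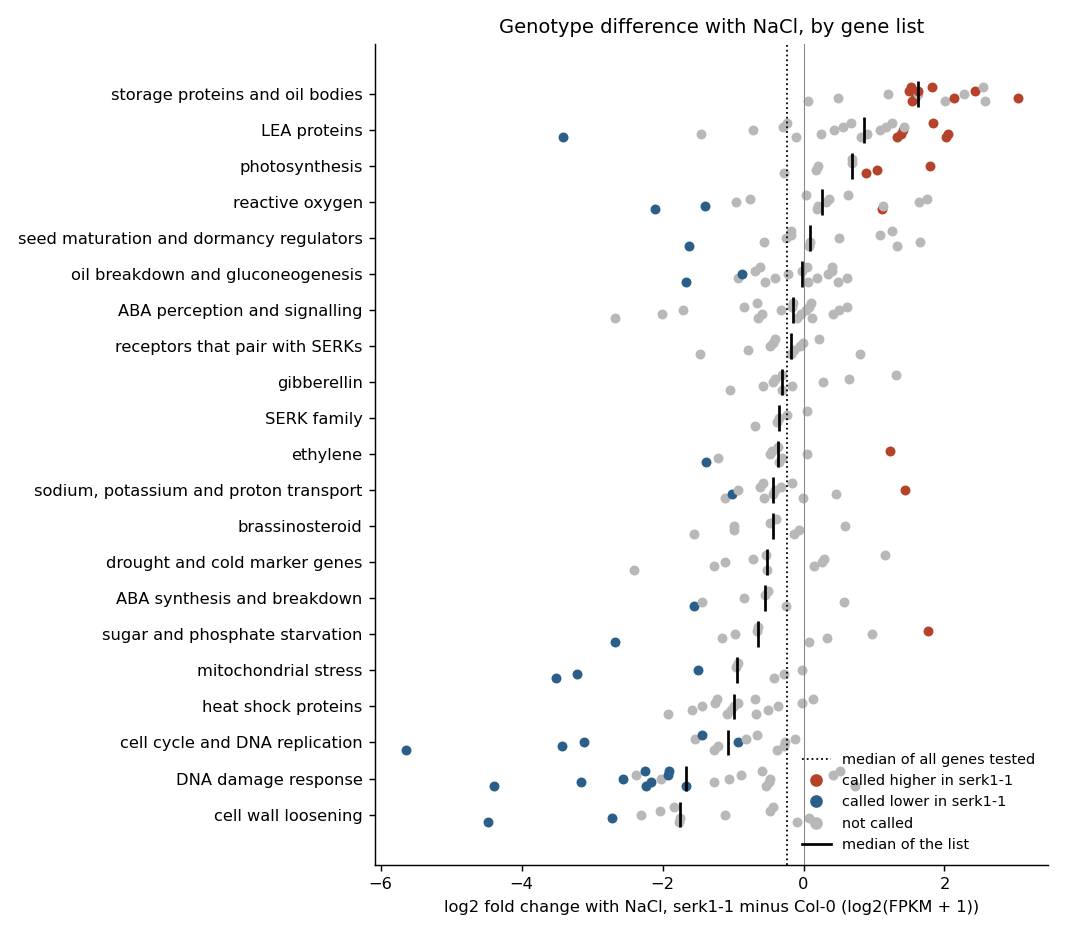
Log2 fold changes with NaCl (horizontal axis, serk1-1 minus Col-0) of the expressed genes of each list, sorted by the list median (black bars), with called genes in colour and the median of all genes tested, -0.24, as a dotted line. Storage and LEA genes lie to the right, and DNA damage, cell cycle and wall loosening genes to the left.

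Among genes of mitochondrial stress, some fell. Of 8 expressed, 3 fell and 8 of 8 had negative values, with a median of -0.94. AOX1A (AT3G22370), the alternative oxidase that bypasses part of the respiratory chain, had 1.79 and 3.79 FPKM in serk1-1 seeds, against 58.1 and 18.4 FPKM in Col-0 seeds (-3.21 ± 0.60, limma adjusted p = 0.032). AT2G21640, annotated as a marker of oxidative stress, had 7.03 and 2.76 FPKM in serk1-1 seeds, against 114 and 33.3 FPKM in Col-0 seeds (-3.51 ± 0.68, limma adjusted p = 0.0339). ANAC013 (AT1G32870), a NAC factor known to activate AOX1A, had 47.0 and 34.3 FPKM in serk1-1 seeds, against 105 and 127 FPKM in Col-0 seeds (-1.50 ± 0.23, limma adjusted p = 0.0207). The groups did not overlap in these 3 genes. Col-0 replicate 1 was the highest library for AOX1A and AT2G21640, and Col-0 replicate 2 for ANAC013. With either serk1-1 library or Col-0 replicate 1 left out, 0 genes of the list were called, and with Col-0 replicate 2 left out, 4. The median was -0.47 without Col-0 replicate 1, with 1 positive value, and between -1.34 and -0.87 in the other 3 fits.

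Enzymes against reactive oxygen were mixed, with 1 higher and 2 lower calls among 14 (median 0.26). CSD2 (AT2G28190), the plastid copper/zinc superoxide dismutase, rose to 206 and 260.4 FPKM in serk1-1 seeds, against 105 and 108 FPKM in Col-0 seeds (1.11 ± 0.21, limma adjusted p = 0.0333). FSD1 (AT4G25100), an iron superoxide dismutase, fell to 1.11 and 1.66 FPKM in serk1-1 seeds, against 4.76 and 5.8 FPKM in Col-0 seeds (-1.40 ± 0.28, limma adjusted p = 0.0367), and the ascorbate peroxidase APX1 (AT1G07890) fell to 1.22 and 0.5 FPKM in serk1-1 seeds, against 7.85 and 6.04 FPKM in Col-0 seeds (-2.11 ± 0.38, limma adjusted p = 0.0306). The catalase CAT3 (AT1G20620) had 899 and 1482 FPKM in serk1-1 seeds, against 255 and 459 FPKM in Col-0 seeds, without overlap and without passing the test (1.75 ± 0.41, limma adjusted p = 0.0519). Leaving out any of the 4 NaCl libraries left 0 calls in the list.

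Oil breakdown feeds the seedling before photosynthesis. Of 17 genes expressed, 0 rose and 2 fell, with a median of -0.03 that was 0.24 after median-of-ratios scaling and 0.01 without Col-0 replicate 2. SDP1 (AT5G04040), the lipase that opens oil bodies, had 54.3 and 43.3 FPKM in serk1-1 seeds, against 92.9 and 86.2 FPKM in Col-0 seeds (-0.87 ± 0.19, limma adjusted p = 0.0427), and ACX2 (AT5G65110), an acyl-CoA oxidase of beta-oxidation, had 114 and 68.8 FPKM in serk1-1 seeds, against 309 and 258 FPKM in Col-0 seeds (-1.66 ± 0.30, limma adjusted p = 0.0292). Both genes were lower in both serk1-1 libraries. The glyoxylate cycle enzyme ICL (AT3G21720), isocitrate lyase, had 12775 and 16368 FPKM in serk1-1 seeds, against 8189.7 and 12909 FPKM in Col-0 seeds, and its groups overlapped (0.49 ± 0.58). Again 0 genes were called once any of the 4 NaCl libraries was left out.

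Of the photosynthesis list, 8 of 20 genes were expressed, and 3 rose. RBCS1A (AT1G67090), a small subunit of Rubisco, had 292 and 260.3 FPKM in serk1-1 seeds, against 74.6 and 82.7 FPKM in Col-0 seeds (1.80 ± 0.22, limma adjusted p = 0.0142). LHCB4.1 (AT5G01530), an antenna protein of photosystem II, had 50.1 and 43.0 FPKM in serk1-1 seeds, against 25.9 and 18.8 FPKM in Col-0 seeds (1.04 ± 0.22), and PSBP1 (AT1G06680), of its oxygen-evolving complex, 40.1 and 40.6 FPKM in serk1-1 seeds, against 19.2 and 23.9 FPKM in Col-0 seeds (0.88 ± 0.18). Both serk1-1 libraries were higher in all 3. RBCS1A has near-identical copies, among which reads may be shared. The list had 2 higher calls without Col-0 replicate 2 and 0 without each of the other 3 NaCl libraries.

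Sodium, potassium and proton transport bears directly on growth in NaCl. Of 13 genes expressed, 1 rose and 1 fell, with a median of -0.43. NHX3 (AT5G55470), a cation/proton exchanger, rose to 46.0 and 47.8 FPKM in serk1-1 seeds, against 17.5 and 15.8 FPKM in Col-0 seeds (1.44 ± 0.17, limma adjusted p = 0.0137). AKT1 (AT2G26650), a potassium channel for uptake, fell to 14.8 and 14.0 FPKM in serk1-1 seeds, against 27.6 and 33.2 FPKM in Col-0 seeds (-1.022 ± 0.22, limma adjusted p = 0.0436). The groups were apart in both. Both genes overlap a neighbouring gene in the annotation, and without strand the reads of the overlap cannot be assigned. The list had 1 higher and 1 lower call without Col-0 replicate 2 and 0 calls without each of the other 3.

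The SOS pathway exports sodium from the cell. SOS1 (AT2G01980), its antiporter, had 6.36 and 4.98 FPKM in serk1-1 seeds, against 9.98 and 7.91 FPKM in Col-0 seeds. Its groups did not overlap either, at a difference of -0.58 ± 0.26, which did not pass the test (limma adjusted p = 0.189). Its kinase SOS2 (AT5G35410) had 2.45 and 2.26 FPKM in serk1-1 seeds, against 2.79 and 1.97 FPKM in Col-0 seeds (-0.00 ± 0.26) and the calcium sensor SOS3 (AT5G24270) had 6.34 and 4.99 FPKM in serk1-1 seeds, against 10.06 and 6.01 FPKM in Col-0 seeds (-0.41 ± 0.30). The groups overlapped in both. CBL10 (AT4G33000), the other sensor of the pathway, did not exceed 0.19 FPKM, and HKT1 (AT4G10310), a sodium transporter of the vasculature, was listed at 0 in all 4 libraries.

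Ethylene gave 1 rise and 1 fall among 9 genes. ACS2 (AT1G01480), an ACC synthase of ethylene synthesis, had 14.5 and 12.2 FPKM in serk1-1 seeds, against 5.05 and 5.17 FPKM in Col-0 seeds (1.23 ± 0.22, limma adjusted p = 0.031), and EBF1 (AT2G25490), the F-box protein that removes EIN3, had 53.5 and 44.9 FPKM in serk1-1 seeds, against 123 and 138 FPKM in Col-0 seeds (-1.39 ± 0.19, limma adjusted p = 0.0178). The replicates of each were close and the groups apart. Sugar and phosphate starvation gave 1 of each among 9 as well. SEN1 (AT4G35770), a gene of darkness and senescence, had 85.8 and 109.6 FPKM in serk1-1 seeds, against 22.6 and 34.0 FPKM in Col-0 seeds (1.77 ± 0.32, limma adjusted p = 0.0297). DIN2 (AT3G60140), a beta-glucosidase of low sugar supply, had 1.02 and 0.87 FPKM in serk1-1 seeds, against 11.9 and 10.8 FPKM in Col-0 seeds (-2.67 ± 0.24, limma adjusted p = 0.0112), the opposite direction. Without Col-0 replicate 2, 1 lower call was left in the ethylene list and 1 of each direction in the starvation list. Without Col-0 replicate 1 there were 0 and 1, and without either serk1-1 library 0 in both lists.

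CRC and SESA5 were among the 15 largest rises, and the others follow. ATS3 (AT5G07190), an embryo-specific protein, led the named rises with 60.5 and 74.4 FPKM in serk1-1 seeds, against 3.98 and 6.94 FPKM in Col-0 seeds (3.44 ± 0.31, limma adjusted p = 0.0112). AT5G15780, of the pollen allergen and extensin family, had 736 and 1120.0 FPKM in serk1-1 seeds, against 39.7 and 176 FPKM in Col-0 seeds (3.42 ± 0.76, limma adjusted p = 0.0442). EPR1 (AT2G27380), an extensin-like protein of the endosperm, had 1989 and 1949 FPKM in serk1-1 seeds, against 250.3 and 232 FPKM in Col-0 seeds (3.02 ± 0.24, limma adjusted p = 0.00805). EPR1 was the 1 call among the 3 endosperm markers expressed. The summed level of the 4 listed was 1999 and 1958 FPKM in serk1-1 seeds, against 257 and 238 FPKM in Col-0 seeds. EPR1 made up nearly all of this sum in each library, so the sum adds little to the value of that gene. The part that the amount of endosperm plays in any list was not tested.

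The other rises came from several families. LCR69 (AT2G02100), a defensin-like peptide, had 168 and 192 FPKM in serk1-1 seeds, against 17.63 and 32.9 FPKM in Col-0 seeds (2.85 ± 0.37). AT2G27940, a RING finger protein, had 36.5 and 47.8 FPKM in serk1-1 seeds, against 4.58 and 4.62 FPKM in Col-0 seeds (2.93 ± 0.28), and CBSX4 (AT1G80090), a protein with cystathionine beta-synthase domains, 49.96 and 61.1 FPKM in serk1-1 seeds, against 8.52 and 5.9 FPKM in Col-0 seeds (2.79 ± 0.27). The pair AT5G45690 and AT1G29680, which share a domain of unknown function, differed by 2.74 ± 0.35 and 2.45 ± 0.41. HCEF1 (AT3G54050), a plastid fructose bisphosphatase, differed by 2.58 ± 0.41, NSP2 (AT2G33070), a nitrile specifier protein of glucosinolate breakdown, by 2.39 ± 0.45, and the oxidoreductase AT1G60680 by 2.47 ± 0.48. AT3G10200, a methyltransferase family protein, and AT5G53895, uncharacterised, differed by 2.40 ± 0.29 and 2.40 ± 0.34. Each of these was higher in both serk1-1 libraries.

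The largest falls came from genes of several kinds. AT2G01422, a non-coding RNA at chr2:183940-184734 of TAIR10.1 that overlaps no annotated gene, had 11.1 and 8.98 FPKM in serk1-1 seeds, against 393 and 375 FPKM in Col-0 seeds. It had the smallest p of all, -5.13 ± 0.19 (limma adjusted p = 0.000162), and its replicates were close. NTL8 (AT2G27300), a membrane-tethered NAC factor known from the salt control of germination, had 4.4 and 1.61 FPKM in serk1-1 seeds, against 73.2 and 26.2 FPKM in Col-0 seeds (-3.58 ± 0.62, limma adjusted p = 0.0282). SRO3 (AT1G70440), a protein of the RCD1 family of stress responses, had 0.54 and 0.47 FPKM in serk1-1 seeds, against 45.9 and 8.62 FPKM in Col-0 seeds (-3.82 ± 0.82, limma adjusted p = 0.0419), and AT5G49480, a calcium-binding protein, 43.4 and 24.5 FPKM in serk1-1 seeds, against 337 and 534 FPKM in Col-0 seeds (-3.66 ± 0.37, limma adjusted p = 0.0127). The groups lay apart in all of these. SRO3 passed the limit of 1 FPKM through Col-0 alone. Among other called genes named here, so did SMR7, CP1, RPA1E, MAPKKK20, DIN2, APX1 and AT5G35688.

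AT5G56350, a pyruvate kinase of glycolysis, had 10.6 and 7.76 FPKM in serk1-1 seeds, against 128 and 109 FPKM in Col-0 seeds (-3.56 ± 0.32). MAPKKK20 (AT3G50310), a protein kinase of mitogen-activated cascades, had 2.63 and 0.63 FPKM in serk1-1 seeds, against 34.6 and 19.2 FPKM in Col-0 seeds (-3.46 ± 0.48). The zinc finger protein PMZ (AT3G28210) had 17.65 and 8.18 FPKM in serk1-1 seeds, against 272 and 81.2 FPKM in Col-0 seeds (-3.52 ± 0.68). Col-0 replicate 1 was the highest library in these 3. AGP15 (AT5G11740), an arabinogalactan protein, and AT1G29310, a SecY protein of secretion, differed by -3.37 ± 0.67 and -3.43 ± 0.79. Of 76 called genes that the naming rule picked, 18 overlap another annotated gene.

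SERK1 and its partners are the genes the line is named for. SERK1 (AT1G71830) had 1.12 and 1.05 FPKM in serk1-1 seeds, against 2.4 and 1.06 FPKM in Col-0 seeds. Col-0 replicate 2 lay within the range of the serk1-1 libraries, and the difference of -0.34 ± 0.33 did not pass the test (limma adjusted p = 0.521). SERK2 (AT1G34210) differed by 0.05 ± 0.40, SERK4 (AT2G13790) by -0.23 ± 0.35 and SERK5 (AT2G13800) by -0.37 ± 0.38. BAK1 (AT4G33430), also called SERK3, was the most abundant, with 27.7 and 25.2 FPKM in serk1-1 seeds, against 49.3 and 37.6 FPKM in Col-0 seeds. It was lower in both serk1-1 libraries, at a difference of -0.68 ± 0.20, short of the threshold (limma adjusted p = 0.0776). The family's median of -0.34 was 0.05 without Col-0 replicate 1.

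Of 11 receptors that pair with these kinases, 0 were called, with a median of -0.18 that was 0.03 after median-of-ratios scaling, 0.10 after quantile normalization, 0.07 without serk1-1 replicate 2 and 0.15 without Col-0 replicate 1. BRL3 (AT3G13380), a brassinosteroid receptor, had 3.92 and 2.78 FPKM in serk1-1 seeds, against 16.1 and 7.37 FPKM in Col-0 seeds (-1.47 ± 0.39, limma adjusted p = 0.0656), and HSL2 (AT5G65710), a peptide receptor, had 8.48 and 8.97 FPKM in serk1-1 seeds, against 4.42 and 4.74 FPKM in Col-0 seeds (0.80 ± 0.27, limma adjusted p = 0.11). The groups did not overlap, in opposite directions. BRI1 (AT4G39400) had 10.6 and 10.2 FPKM in serk1-1 seeds, against 19.2 and 11.3 FPKM in Col-0 seeds (-0.47 ± 0.28). Of 8 brassinosteroid genes, 0 were called (median -0.44), and the largest differences were those of the biosynthetic BR6OX2 (AT3G30180), -1.55 ± 0.87, and of the transcription factor BZR1 (AT1G75080), -0.99 ± 0.32 (limma adjusted p = 0.284 and 0.101).

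Heat shock genes set 1 library apart. The summed level of the 16 genes listed was 2000 and 1891 FPKM in serk1-1 seeds, against 1095 and 9227 FPKM in Col-0 seeds. HSP70B (AT1G16030), a chaperone, had 73.0 and 157 FPKM in serk1-1 seeds, against 35.3 and 1348 FPKM in Col-0 seeds. HSP17.6II (AT5G12020), a small heat shock protein, had 11.5 and 41.5 FPKM in serk1-1 seeds, against 12.4 and 570.5 FPKM in Col-0 seeds. Col-0 replicate 2 was the highest library in both, and Col-0 replicate 1 the lowest in HSP70B. Of the 15 genes expressed, 0 were called, with a median of -0.99 that was 0.66 without Col-0 replicate 2. The largest differences were those of HSP17.6II (-1.93 ± 1.70) and AT1G59860 (-1.59 ± 0.64). Of 10 marker genes of drought and cold, 0 were called (median -0.53). ZAT12 (AT5G59820), a zinc finger factor of stress, had 40.1 and 17.3 FPKM in serk1-1 seeds, against 67.2 and 306 FPKM in Col-0 seeds (-2.40 ± 0.86), again with Col-0 replicate 2 highest, and DREB2A (AT5G05410), a factor of dehydration and heat, had 169 and 96.5 FPKM in serk1-1 seeds, against 256 and 373 FPKM in Col-0 seeds (-1.27 ± 0.42). Leaving out Col-0 replicate 2 gave 660 calls, of which 416 were among the 962. The part of the heat shock values in the calls was not tested further.

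**Figure D4:**
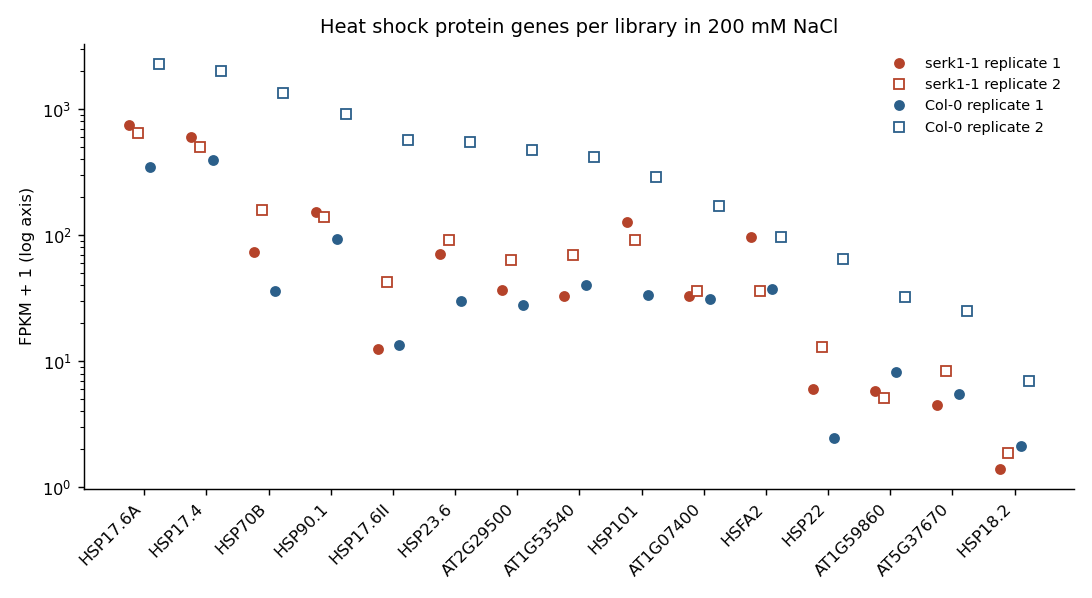
Levels of 15 heat shock protein genes (vertical axis FPKM + 1, log scale) in the 2 serk1-1 and 2 Col-0 libraries with 200 mM NaCl, sorted by the level in Col-0 replicate 2. Col-0 replicate 2 lies above the other 3 libraries in every gene shown but HSFA2, with HSP70B at 1348 FPKM against 73.0 and 157 FPKM in serk1-1 and 35.3 FPKM in Col-0 replicate 1.

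The same contrast was made between seeds without NaCl. Without NaCl, 920 genes were called higher (6%) and 777 lower (5.07%). Of the 962 genes called with NaCl, 795 were called in the same direction without it (310 higher and 485 lower). This is 82.64% of the calls with NaCl and 46.85% of those without, and 957 of 962 had the same sign. Both contrasts come from the same fit and use the same estimate of spread for each gene. A gene with a small estimate is thus favoured for a call in both media, which builds in part of this overlap. Across genes tested, the genotype difference with NaCl and that without it come from separate libraries, and their correlation was r = 0.896 (Spearman's rho 0.886), given as a description since genes are not independent. The test of the difference between the media called 0 genes (0%), with 165 at an unadjusted p under 0.05 and a smallest limma adjusted p of 0.99994. A gene called in 1 medium alone is not shown to differ between the media by this test. A p that misses the threshold does not show that the differences were equal either.

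The 5 smallest p of that test are given as values. WOX2 (AT5G59340), a homeobox factor of the embryo, had 7.01 and 6.06 FPKM in serk1-1 seeds, against 25.7 and 26.8 FPKM in Col-0 seeds with NaCl. Without NaCl it had 5.21 and 5.08 FPKM in serk1-1 seeds and 7.62 and 6.05 FPKM in Col-0 seeds, and the differences were -1.86 ± 0.21 with NaCl and -0.34 ± 0.21 without. AT3G16120, a dynein light chain, stood at 1.39 ± 0.24 with NaCl and 3.18 ± 0.24 without. AT3G06895, a syntaxin-like gene, stood at -0.45 ± 0.37 and -3.04 ± 0.37, and AT3G15450, an aluminium-induced protein, at 0.08 ± 0.27 and 1.71 ± 0.27. AT5G35688, a metalloproteinase-like gene, was listed at 0 in both serk1-1 libraries with NaCl and had 4.19 and 6.32 FPKM in Col-0 seeds, and was listed at 0 in all 4 libraries without NaCl. It overlaps AT5G35690 in the annotation. CYP707A2 stood at -1.55 ± 0.24 with NaCl and -0.20 ± 0.24 without, a difference of -1.35 ± 0.34 that did not pass the test.

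By list, the counts with NaCl and without it stood side by side as follows. Storage and oil body genes had 9 and 12 higher calls, with medians of 1.63 and 2.01. LEA proteins had 6 and 12 higher calls, with medians of 0.86 and 1.16. Cell wall loosening genes had 2 and 4 lower calls and DNA damage genes 9 and 10, with medians of -1.67 and -1.81 for the DNA damage genes. Cell cycle genes had 5 and 7 lower calls, with medians of -1.08 and -1.04. The direction was the same in both media for these 5 lists.

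**Figure D5:**
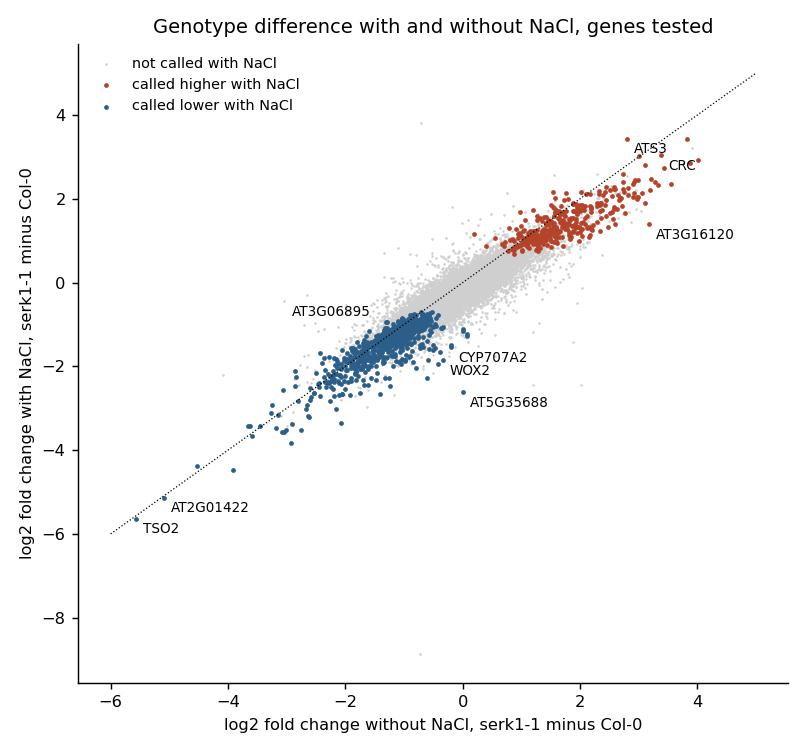
Log2 fold changes, serk1-1 minus Col-0, with NaCl (vertical axis) against those without NaCl (horizontal axis) for the 15336 genes tested, with genes called with NaCl in colour and the line of equal differences dotted. Most called genes lie along the line, TSO2 and AT2G01422 at its low end, and WOX2, CYP707A2, AT5G35688, AT3G06895 and AT3G16120 lie off it.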

How the data were processed

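Total RNA of 24 h imbibed seeds was sequenced in paired-end runs on an Illumina HiSeq2500 after TruSeq library preparation, per the labels' protocols. The titles of the serk1-1 samples also hold the words wild type, so each sample's genotype comes from its own genotype field. The authors deposited FPKM for each gene, made with TopHat2 and Cufflinks 2.1.1 after FastQC 0.10.1 on the build TAIR10, per the submitters' processing notes. How strand was set and how reads matching more than 1 locus were shared out is not stated there. Low FPKM of 28 library pairs were checked for steps of whole fragments, and the fullest window of ratios held 1.74% to 2.98% of genes, so no depth was recovered.

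The 15336 genes that reached 1 FPKM in 2 or more of the 8 libraries were fitted as log2(FPKM + 1) with limma 3.58.1 in R 4.3.3, as 4 group means with a mean-variance trend (4 residual and 3.48 prior degrees of freedom), two-sided, with Benjamini-Hochberg adjustment over these genes. At 2 libraries a group, no exact exchange of labels can reach the threshold of 0.05. The 25 gene lists and the genes described were chosen with earlier results of these data known. Named are the 15 largest rises and falls among called genes whose mean reached 5 FPKM and whose groups did not overlap, up to 6 called genes of each list or its 2 largest changes, the 5 smallest p between media, and a fixed set of SERK, SOS, ABA and gibberellin genes. AT3G27050, the cell cycle genes listed as weakly expressed, and several genes shown for contrast were added after their values were seen. Examples of the last are CRA1, SESA1, RAB18, BRI1, RNR2A, CYP707A3, ABA1, ABF4 and XTH25. The result of 1 gene that the rule picked is not reported here. The script was tested on simulated data. Names and sequences come from RefSeq's TAIR10.1, which matched 32815 loci. Alternatives covered the pseudocount, the filter, the scaling, the options of limma, the libraries fitted and the replicate number, and the ribosomal DNA loci left out was chosen after seeing the data. Figures used Python 3.11.15 and matplotlib 3.10.9.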

Additional observations from a re-analysis of the deposited data

How the results depend on the processing

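The 962 calls moved to 412 with no filter on low values, 1514 with quantile normalization and 9 with the 4 NaCl libraries alone, and leaving out 1 library gave 2 to 660. Of the 962, 396 were also called with no filter, 841 with quantile normalization and 692 with median-of-ratios scaling. The pseudocounts, a mean of at least 5 FPKM, the 14269 genes alone, median-of-ratios scaling, equal totals, the trend and robust options, a fold limit and the ribosomal DNA loci left out gave 710 to 1248, within 1.5 times the count. Whether equal replicate numbers stand for a common batch is not stated in the labels. Replicate differences of the NaCl groups correlated with r = 0.451 across genes (0.397 to 0.72 over 6 pairs of groups), and the fit with a replicate block called 5801 genes, and 5324 together with median-of-ratios scaling. All 962 were called in both fits with the replicate block. Among the single genes followed through the alternatives, 23 and 18 that missed the threshold in the main fit were called in these fits. That a gene did not pass the test thus holds for the fit without the block. The test between media gave 0 calls under the alternatives run, with the exception of 2, both lower, without serk1-1 NaCl replicate 1, and of the fit of 4 libraries, which has no value for it. Leaving out 1 library gave 0 to 2. The cause of these moves was not tested, except that fewer libraries leave less to estimate the spread.

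Single genes changed sign under some alternatives. With equal totals SERK2 stood at -0.039, ABI5 at -0.016, AT3G15450 at -0.031 and SESA1 at -0.053. With quantile normalization SERK4 stood at 0.088, ICL at -0.22 and SOS2 at 0.32. SOS2 also stood at 0.004 and 0.001 with pseudocounts of 0.1 and 0.5, and at 0.20 with median-of-ratios scaling, with and without the replicate block. Genes that changed sign when 1 library was left out did so over these ranges of fits without 1 library. HSP70B ran from -3.64 to 1.57, HSP17.6II from -4.63 to 0.78, SERK1 from -0.71 to 0.017, SERK2 from -0.31 to 0.40, SERK4 from -0.61 to 0.15 and SERK5 from -0.80 to 0.054. ABI5 ran from -0.66 to 0.85, AT3G15450 from -0.033 to 0.20, SESA1 from -0.17 to 0.29, DOG1 from -0.38 to 0.55 and SOS2 from -0.18 to 0.18. The depth is unknown, so no counting error limits a value here.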

Other observations

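Proteasome genes, grouped after the values were seen by the word proteasome in their annotation, were low in serk1-1 with NaCl. Of 43 such genes expressed, 0 rose, 11 fell and 39 had negative values, with a median of -1.41 (range -2.81 to 0.46), beside a median of -0.24 over all genes tested. Over all genes tested, 2.13% were called higher and 4.14% lower. The group takes in subunits of the 20S core and the 26S regulatory particle, PCI domain proteins such as those of the COP9 signalosome, and inhibitor-like and assembly chaperone genes. It is not complete, since the word misses subunits such as RPT3 (AT5G58290), RPT4A (AT5G43010), RPN10 (AT4G38630) and PBB1 (AT3G27430), which were called lower. PBC2 (AT1G77440), a subunit of the 20S core, had 55.4 and 34.4 FPKM in serk1-1 seeds, against 406 and 152 FPKM in Col-0 seeds (-2.48 ± 0.53, limma adjusted p = 0.0409). PA200 (AT3G13330), a proteasome activator, had 27.1 and 18.7 FPKM in serk1-1 seeds, against 129.6 and 87 FPKM in Col-0 seeds (-2.19 ± 0.31, limma adjusted p = 0.0187). The core subunits PAE1 (AT1G53850) and PBG1 (AT1G56450) differed by -2.39 ± 0.51 and -2.23 ± 0.45, and AT4G24820, annotated as the regulatory subunit Rpn7, by -1.36 ± 0.29. Both serk1-1 libraries were lower in each of these genes.

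Summed over the 43 genes, the level was 4338 and 3333 FPKM in serk1-1 seeds, against 13501 and 6911 FPKM in Col-0 seeds. Col-0 replicate 1 was the highest library. Without NaCl 14 of the 43 genes were called lower, and the median was -1.28. The list was chosen for its values, so these counts are a description and were not tested.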
